A study of Mus musculus and Homo sapiens with 34 samples.

Results

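The Sprouty and Spred genes encode the feedback inhibitors of the RAS-ERK pathway, and their 7 members were taken as every row named Spry1, Spry2, Spry3, Spry4, Spred1, Spred2 or Spred3 (SPRY1 to SPRED3 in human) in the 7 tables of raw counts. They are 7 of 30194 distinct gene symbols in the series. All 7 had a row in 5 tables, and Spry3 was not analysed here in the 1027B organoids and in the 48-hour 3154 experiment. Every row passed the filter on low counts.

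Growth factor receptors load RAS with GTP, and RAS then signals through RAF, MEK and ERK. ERK activity in turn raises the transcription of several of its own inhibitors, so that Sprouty and Spred RNA is widely read as a record of pathway output. Sprouty proteins act near the receptor and its adaptors, and phosphorylated Sprouty2 binds the ubiquitin ligase CBL. Spred proteins carry an EVH1 domain, with which Spred1 and Spred2 bring the RAS GTPase-activating protein neurofibromin to the membrane.

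The study has 34 libraries in 17 groups of 2, of which 22 come from mouse lung tumours in culture and 12 from cell lines of human lung adenocarcinoma. The 3154 organoids carry p53frt and Rosa-FSF-CreERT2 alleles together with Hnf4aflox. In the first experiment they received ethanol or 4-hydroxytamoxifen (4OHT, 2 mM as the labels give it), which activates CreERT2 and deletes Hnf4a, and RNA was taken 2 weeks later. In the second experiment ethanol or 4OHT was combined with control or with 3 nM of the inhibitor MRTX1133, and these libraries are labelled 48 hours. The 1027B organoids and the 3311 cell line share the p53frt and Rosa-FSF-CreERT2 alleles and carry Foxa1flox and Foxa2flox, and the labels name no 4OHT treatment for them. Trametinib blocks MEK. The 1027B organoids received control, trametinib (10 nM) or MRTX1133 (20 nM), and 3311 received control or 50 nM trametinib, each for 48 hours. The human lines H358 and H1651 received control or 20 nM trametinib for 48 hours. H1651 cells with a lentiviral HNF4α construct were also grown for 7 days with or without 1 µg/mL doxycycline, which switches the construct on. Each condition rests on 1 named culture. The labels do not say that replicates came from separate cultures, so p-values measure the spread between these libraries, which may be technical.

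Levels are CPM (the counts of a gene scaled to a fixed library total) adjusted by TMM, a correction for library composition, and each was tested with edgeR's quasi-likelihood F-test within its own table. A member is said to have risen or fallen where its Benjamini-Hochberg adjusted p over all genes of the table was under 0.05, and the matching share of all genes tested is given beside each count. The word called is used of this edgeR test, for members and for other genes, unless another tool is named. Total counts ran from 19692517 to 45284286 per library. Epithelial markers (Epcam, Cdh1, Krt8, Krt18 and Krt19) summed to 6160 to 10900 CPM in the mouse libraries and to 3600 to 6930 CPM in the human ones, where EPCAM was at 0.993 to 3.81 CPM and KRT19 at 6.41 to 8.70 CPM in all H1651 libraries. Hnf4a was at 315 and 427 CPM with ethanol against 53.5 and 68.0 CPM with 4OHT in the 2-week experiment, and at 221 and 230 against 49.4 and 50.4 CPM in the 48-hour control groups. With MRTX1133 it was at 180 and 184 CPM with ethanol and at 25.3 and 29.8 CPM with 4OHT, so that the 4OHT groups with and without MRTX1133 also differ in the Hnf4a RNA that is left. HNF4A was at 47.1 and 35.9 CPM without doxycycline and at 94.4 and 96.8 CPM with it, and had 0 counts in all 4 H358 libraries, which allows up to 0.0681 to 0.121 CPM (3 counts).

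Promoters of 5 of the 7 mouse members were found in RefSeq's table for GRCm38.p6, and 3 are shown because they span the range of motif content among genes that fell with trametinib in the 3311 line. Each runs 5′ to 3′ over the 250 bases before the RefSeq start, with motif matches in capitals. The Spry1 promoter lies on the plus strand at chr3:37639697-37639946, the Spry2 promoter on the minus strand at chr14:105896820-105897069, and the Spred3 promoter on the minus strand at chr7:29168648-29168897.
Spry1: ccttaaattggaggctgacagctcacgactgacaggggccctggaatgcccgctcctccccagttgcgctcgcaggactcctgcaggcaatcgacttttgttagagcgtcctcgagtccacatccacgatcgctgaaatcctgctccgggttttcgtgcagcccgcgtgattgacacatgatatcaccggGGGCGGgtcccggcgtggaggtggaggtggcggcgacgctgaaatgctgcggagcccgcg
Spry2: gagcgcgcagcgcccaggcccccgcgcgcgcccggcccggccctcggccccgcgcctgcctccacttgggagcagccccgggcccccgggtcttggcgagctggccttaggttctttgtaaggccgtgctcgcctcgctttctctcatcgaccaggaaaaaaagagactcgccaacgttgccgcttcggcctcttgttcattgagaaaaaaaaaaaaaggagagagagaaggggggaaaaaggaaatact
Spred3: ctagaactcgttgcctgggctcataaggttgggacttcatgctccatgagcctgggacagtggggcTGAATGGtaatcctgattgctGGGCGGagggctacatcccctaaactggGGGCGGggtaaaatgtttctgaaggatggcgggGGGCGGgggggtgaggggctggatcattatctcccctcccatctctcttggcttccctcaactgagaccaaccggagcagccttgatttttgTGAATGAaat

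The search covered both strands for AP-1 (TGAGTCA), ETS (CCGGAAG), 2 forms of the Capicua motif (TGAATGA and TGAATGG), CRE (TGACGT), HNF4 (CAAAGTC), the E-box (CACGTG) and the GC box (GGGCGG). Capicua is a repressor that ERK inactivates, and ETS and AP-1 factors are classical ERK effectors. Spred3 had a match to TGAATGA starting 10 bases before its start, found in 3.14% of 32851 mouse promoters of the same length, and a match to TGAATGG starting 184 bases before it, found in 2.98%. The Spred3 window lies inside the Spred3 gene as annotated in GENCODE M21 (chr7:29158829-29170411), so its RefSeq start is internal to that gene model. Spry1 had a GC box starting 60 bases before its start, Spred3 had 3 GC boxes, Spred1 had 2, and Spred2 had 1 beside a CRE match, against GC boxes in 32.7% and CRE matches in 6.47% of all promoters. The Spry2 window held none of these letters. No member window matched AP-1, ETS, HNF4 or the E-box, which occurred in 4.46%, 6.91%, 3.84% and 6.02% of all promoters. These matches are descriptions of letters in a short window. Of Spry1's exon bases, 24.4% overlap Gm42922 on the opposite strand, which had between 4 and 34 counts where Spry1 had between 567 and 5007.

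Without inhibitor or 4OHT, levels per kilobase of exon differed widely between members. In the ethanol-treated 3154 organoids Spry2 was highest, at 46.9 CPM per kb in the 2-week experiment and 54.6 CPM per kb in the 48-hour one, followed by Spred1 at 21.4 and 33.1, Spry1 at 17.8 and 16.5, and Spred2 at 9.60 and 13.2 CPM per kb. The libraries of Spred1 and Spry1 overlapped in the 2-week experiment, where Spry1 spanned 12.6 to 23.0 and Spred1 21.4 to 21.5 CPM per kb. In 1027B the order was Spred1 at 35.0, Spry2 at 26.8, Spry1 at 16.8 and Spred2 at 16.1 CPM per kb, and the ranges of the last pair overlapped. Spry4 stood low in all organoid controls, at 1.96 to 3.36 CPM per kb. In the 3311 line it was at 29.7 CPM per kb, after Spry1 at 61.1, Spry2 at 46.6 and Spred1 at 44.1 CPM per kb, and the ranges of Spry2 and Spred1 overlapped. Spry3 was lowest wherever it was measured in mouse, at 0.222 CPM per kb in 3154 and 0.559 CPM per kb in 3311. Lengths come from GENCODE M21, which may not be the annotation used for counting.

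With 50 nM trametinib in the 3311 line, 6 of 7 members fell, against 19.6% of 15224 genes that fell. In bulk RNA, fewer cells of a type and less RNA per cell cannot be told apart. Spry4, an inhibitor of receptor-driven RAS signalling, had the largest change of the family. It was at 125 and 157 CPM in the controls and at 6.17 and 13.6 CPM with trametinib. Both treated libraries lay far below both controls, a 14.3-fold fall (log2 fold change -3.84 ± 0.36 SE, adjusted p = 0.000738). The log2 fold change was -4.52 without trametinib replicate 2 and -3.38 without trametinib replicate 1.

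The other members that fell in 3311 did so between 1.89-fold and 2.30-fold. Spry1 was at 186 and 169 CPM in controls and at 74.0 and 80.3 CPM with trametinib, a 2.30-fold fall. Spry2 was at 93.3 and 101 CPM and then at 40.5 and 53.1 CPM, a 2.08-fold fall. Spred2, a neurofibromin partner, was at 72.6 and 82.6 CPM and then at 31.3 and 36.4 CPM, a 2.29-fold fall. Spred1, the neurofibromin partner mutated in Legius syndrome, fell 1.89-fold from 305 and 293 to 155 and 163 CPM. Spred3 fell 2.21-fold from 45.7 and 61.5 to 23.9 and 24.5 CPM. Groups did not overlap for any of these genes, and their adjusted p ranged from 0.00122 to 0.00400. Spry3 was low, at 1.71 and 3.15 CPM in controls and 2.04 and 2.43 CPM with trametinib. Its groups overlapped and its log2 fold change of -0.11 had a 95% interval from -1.09 to 0.86. In the same libraries epithelial markers summed to 7540 and 9690 CPM in controls and to 6160 and 7910 CPM with trametinib. Krt18 lay lower with trametinib (2630 and 2380, then 847 and 1010 CPM) and Cdh1 higher (600 and 791, then 882 and 940 CPM). The 3 of 5 leukocyte markers with a row summed to 9.55 and 15.7 CPM in controls and to 21.8 and 28.6 CPM with trametinib. Csf1r was at 4.68 and 11.7 and then at 20.2 and 27.7 CPM, Cd68 lay lower with trametinib (4.87 and 4.06, then 1.54 and 0.951 CPM), and Ptprc, the pan-leukocyte marker, was at 0 in all 4. The 5 of 8 fibroblast markers with a row summed to 21.5 and 26.2 CPM and then to 17.5 and 17.3 CPM, with Col1a2 at 0 throughout. Pdgfra and Pdgfrb made up most of that sum and lay lower with trametinib on average, while Col1a1 lay higher, at 2.08 and 1.35 and then at 6.70 and 3.92 CPM. Their part in the result was not tested.

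With 10 nM trametinib in 1027B organoids, 4 of 6 members fell, against 13.2% of 14555 genes. Spry4 was at 12.4 and 14.5 CPM in controls and at 0.668 and 0.513 CPM with trametinib, the latter resting on 15 and 11 counts. This was a 22.5-fold fall (log2 fold change -4.49 ± 0.41 SE, adjusted p = 0.00114). Spred2 followed, from 68.1 and 80.2 to 17.8 and 29.1 CPM, a 3.16-fold fall (adjusted p = 0.00414). Spry2 fell 2.07-fold, from 58.3 and 53.7 to 23.7 and 30.3 CPM (adjusted p = 0.00418). Spry1 fell 1.66-fold, from 45.6 and 52.1 to 25.2 and 33.6 CPM (adjusted p = 0.0187), and this call was lost without control replicate 2 (adjusted p = 0.0906) or trametinib replicate 1 (adjusted p = 0.0939).

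The other Spred genes of 1027B did not pass in the fit without the block. Spred1 was at 216 and 259 CPM in controls and at 186 and 222 CPM with trametinib, with overlapping groups and a log2 fold change of -0.22 (95% interval -0.55 to 0.11). Replicate numbers were taken to pair the 1027B libraries, and with the replicate block Spred1 passed (log2 fold change -0.22, adjusted p = 0.0263), so that 5 of 6 members fell against 23.0% of all genes. Spred3 was at 15.6 and 16.1 CPM and then at 14.0 and 12.5 CPM (log2 fold change -0.26, 95% interval -0.68 to 0.16). Neither fit called it. In the same libraries epithelial markers summed to 9170 and 9030 CPM in controls and to 7420 and 8260 CPM with trametinib, with Cdh1 higher (1200 and 1110, then 1770 and 1640 CPM). The 3 of 5 leukocyte markers with a row summed to 8.28 and 7.80 and then to 7.17 and 6.44 CPM. Among them Csf1r went from 0.484 and 0.379 to 2.94 and 2.29 CPM and Ptprc from 1.79 and 1.08 to 0.223 and 0.187 CPM, and their part in the result was not tested.

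With 20 nM MRTX1133 in 1027B, Spry4 was the 1 member of 6 that fell, against 3.26% of all genes. Its libraries were at 4.49 and 2.29 CPM, below both controls, a 3.91-fold fall (log2 fold change -1.97 ± 0.33 SE, adjusted p = 0.0238). The call was lost without control replicate 1 (adjusted p = 0.0780), control replicate 2 (0.0928) or MRTX1133 replicate 2 (0.0798). Spred2 was at 43.4 and 49.8 CPM (log2 fold change -0.67), Spry2 at 37.1 and 40.2 CPM (-0.54) and Spry1 at 36.4 and 38.5 CPM (-0.38), each with both libraries below both controls. With the replicate block these 3 genes passed as well (adjusted p = 0.00672, 0.0131 and 0.0324), making 4 of 6 against 12.7% of all genes. Spred1 was at 215 and 242 CPM and Spred3 at 16.3 and 12.6 CPM, and both overlapped their controls.

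Set directly against each other in 1027B, the inhibitors did not differ for any member in the fit without the block, where 0% of all genes passed. At an unadjusted p under 0.05 the test counted 3 members and 2357 of 14555 genes, and DESeq2 called 2 members and 712 genes. Spry4 was 5.75-fold higher with MRTX1133 than with trametinib (log2 difference 2.52, 95% interval 1.55 to 3.5, adjusted p = 0.0822). With the replicate block, Spry4 (adjusted p = 0.00589), Spred2 (log2 difference 1.02, adjusted p = 0.00292) and Spry2 (0.52, adjusted p = 0.0260) were higher with MRTX1133, 3 of 6 against 7.75% of all genes. The log2 differences of Spry1, Spred1 and Spred3 were 0.35 (95% interval -0.04 to 0.73), 0.17 (-0.16 to 0.50) and 0.13 (-0.29 to 0.54). These are 20 nM MRTX1133 and 10 nM trametinib, so drug and dose cannot be told apart.

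In H358 cells 20 nM trametinib lowered 6 of 7 members, against 23.2% of 18972 genes. SPRY4 was at 32.4 and 35.3 CPM in controls and at 0.580 and 0.707 CPM with trametinib (27 and 18 counts). That is a 53.5-fold fall, the largest of any member in the 13 comparisons (log2 fold change -5.74 ± 0.19 SE, adjusted p = 2.03e-06). All 3 SPRED genes fell. SPRED1 went from 83.8 and 83.5 to 24.2 and 32.9 CPM (2.94-fold), SPRED2 from 74.9 and 77.0 to 22.4 and 24.6 CPM (3.24-fold), and SPRED3, the family member whose KIT-binding domain is not functional, from 16.0 and 11.3 to 3.93 and 3.96 CPM (3.46-fold).

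SPRY1 fell 2.77-fold in H358, from 64.6 and 56.5 to 23.9 and 19.7 CPM, and SPRY2 fell 1.65-fold, from 31.8 and 29.2 to 18.4 CPM in both treated libraries. Their adjusted p were 0.000127 and 0.00216. SPRY4-AS1, named as antisense to SPRY4, had 58 and 42 counts in controls and 27 and 12 with trametinib, where SPRY4 had 1251 and 1182 and then 27 and 18, and reads of the pair cannot be told apart if counting ignored strand. SPRY3 was at 7.12 and 5.17 CPM in controls and at 8.04 and 7.93 CPM with trametinib, higher in both treated libraries without passing (log2 fold change 0.38, 95% interval -0.09 to 0.84). Fibroblast markers moved in the same libraries: 8 of 8 had a row, and their summed level was 41.2 to 50.0 CPM in controls and 246 to 349 CPM with trametinib. COL1A1 and LUM made up most of it, and COL3A1 was at 0.518 and 0.627 CPM in controls and at 4.83 and 7.42 CPM with trametinib. COL1A2, DCN and THY1 were at 0 in both controls and at 0 to 0.430 CPM with trametinib, and PDGFRA and PDGFRB were at 0.0896 to 0.473 CPM in all 4 libraries. Epithelial markers summed to 5530 and 5340 CPM in controls and to 3600 and 3880 CPM with trametinib, while CDH1 alone went the other way, from 432 and 465 to 833 and 1030 CPM. The 4 of 4 endothelial markers summed to 12.1 and 14.4 CPM and then to 21.1 and 21.2 CPM, with CDH5 going from 0.570 and 0.508 to 8.04 and 4.71 CPM and PECAM1 at 0 in 1 treated library. Their part in the result was not tested.

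**Figure D1:**
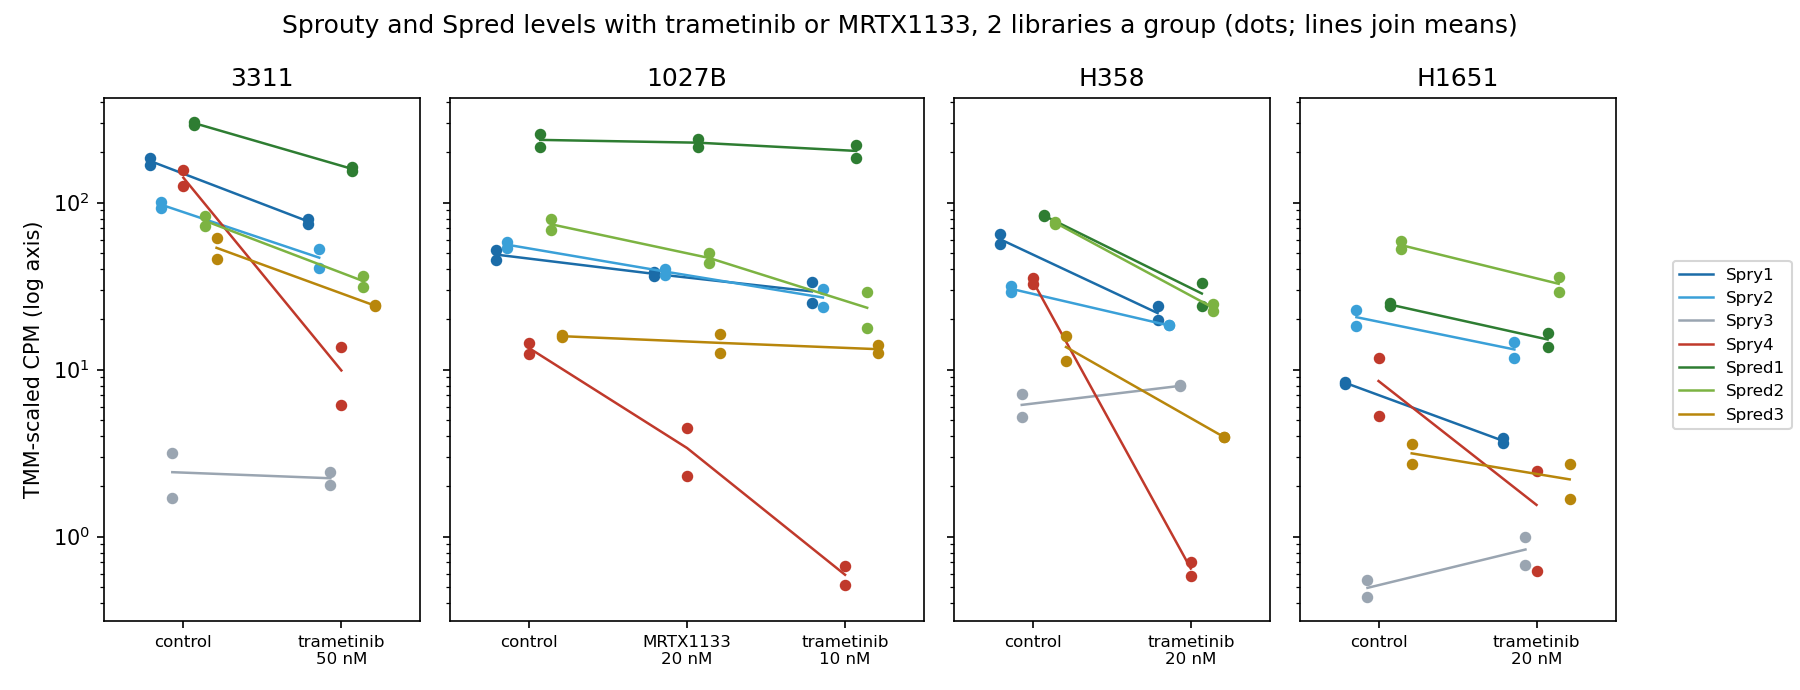
TMM-scaled CPM of each member (log axis) in the 1027B organoids and the 3311, H358 and H1651 lines, each with its control and inhibitor groups at 48 hours, with 2 libraries a group as dots and lines joining group means. The gap between control and trametinib is widest for Spry4 in every panel, and its libraries reach 0.513 CPM in 1027B and 0.580 CPM in H358.

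In H1651 cells 20 nM trametinib gave no call for any member in the fit without the replicate block, and 0% of 18277 genes passed. At an unadjusted p under 0.05 there were 5 of 7 members and 597 genes. DESeq2 called 3 members and 47 genes. With the replicate block 6 of 7 members fell, as did 986 of 18277 genes. Pairing was not accepted here, because a table of 2 groups gives only 1 correlation (0.623). SPRY4 was at 5.28 and 11.8 CPM in controls and at 0.625 and 2.47 CPM with trametinib. Both treated libraries lay below both controls, with a log2 fold change of -2.46 without the block (95% interval -4.28 to -0.64, adjusted p = 0.999). Without 1 library it ranged from -1.76 (control replicate 2) to -3.76 (trametinib replicate 2), and it passed only without control replicate 1 (-2.93, adjusted p = 0.0131), with adjusted p of 0.992 to 1 in the other 3 fits.

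Without the block edgeR called none of the remaining H1651 members, while DESeq2 called SPRY1 (adjusted p = 0.0026) and SPRED2 (adjusted p = 0.00936) lower. All but SPRY3 had a negative log2 fold change. SPRY1 was at 8.25 and 8.40 CPM and then at 3.61 and 3.87 CPM (log2 fold change -1.15). SPRED2 was at 53.0 and 58.5 CPM and then at 29.3 and 36.0 CPM (-0.77), and SPRED1 at 23.9 and 25.2 CPM and then at 13.7 and 16.6 CPM (-0.69). SPRY2 was at 18.3 and 22.9 CPM and then at 11.8 and 14.6 CPM (-0.64). SPRED3 overlapped between groups (3.59 and 2.71 CPM against 2.72 and 1.68 CPM). SPRY3 was at 0.550 and 0.436 CPM in controls and at 1.00 and 0.673 CPM with trametinib (0.75, 95% interval -0.16 to 1.66).

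**Figure D2:**
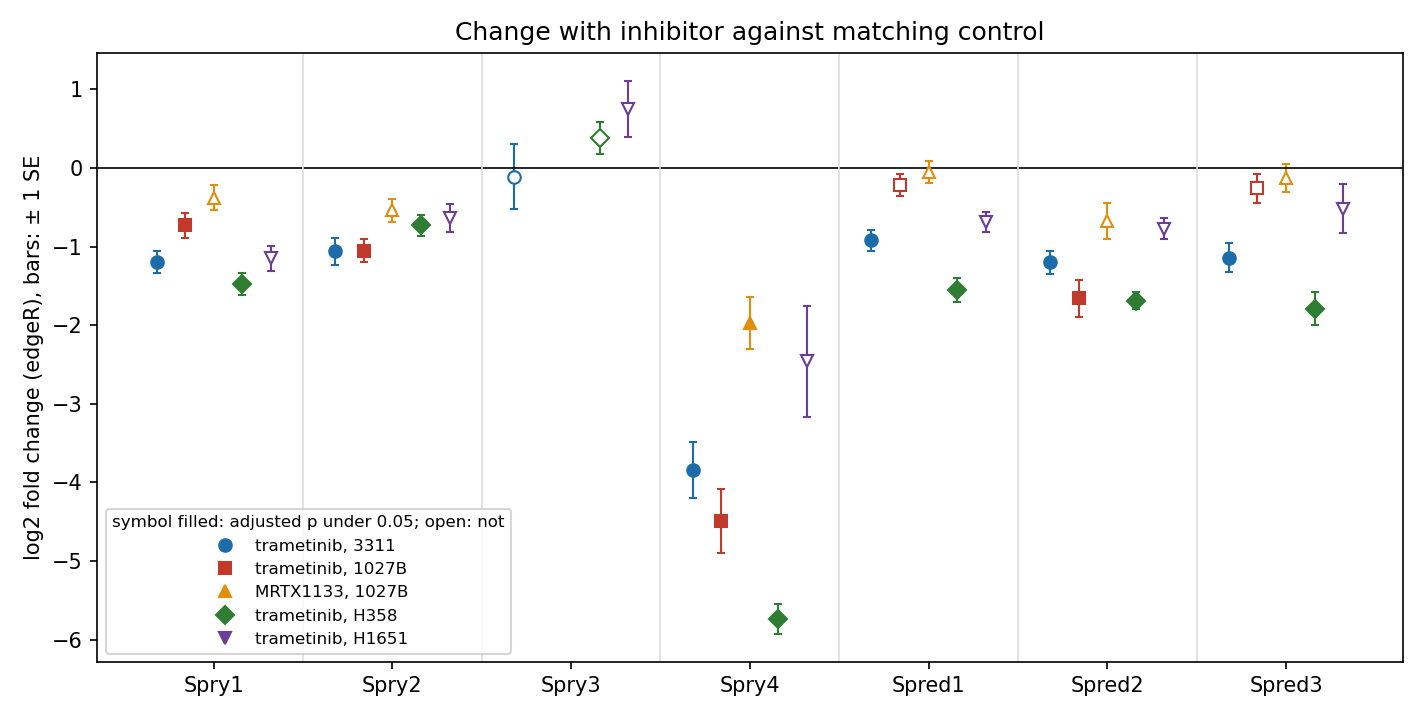
Fitted log2 fold change of each member with inhibitor against its control in 5 comparisons, with bars of 1 SE, and filled symbols where the adjusted p was under 0.05. Spry4 lies between -1.97 and -5.74 and most other members between 0 and -2. Every H1651 symbol is open.

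Among other genes of the pathway, a list of 15 ERK target genes (Dusp4, Dusp5, Dusp6, Phlda1, Ccnd1, Epha2, Epha4, Etv1, Etv4, Etv5, Egr1, Fosl1, Ier3, Errfi1 and Il17rd) moved with the same drugs. In 3311, 11 of 15 fell and 1 rose, with a median log2 fold change of -1.83, beside -1.14 over the 7 members and 0.01 over all genes. The largest fall was that of Etv4, an ETS factor (log2 fold change -6.31, adjusted p = 0.000220), and Epha4, an ephrin receptor, rose (0.86, adjusted p = 0.00509). In 1027B with trametinib, 11 of 13 fell and 1 rose (median -1.90, beside -0.89 over the members and -0.01 over all genes), led by Fosl1, an AP-1 subunit (-4.34, adjusted p = 0.000469), with Epha4 higher (0.57, adjusted p = 0.0132). With MRTX1133, 7 of 13 fell and 1 rose (median -1.04, beside -0.46 and 0.01), again with Fosl1 lowest (-2.07, adjusted p = 0.00840) and Epha4 higher (0.72, adjusted p = 0.0191). Leaving out control replicate 2 took these 8 calls with MRTX1133 to 3, and leaving out any of the other libraries compared took them to 2, all lower. In H358, 13 of 15 fell and 1 rose (median -3.65, beside -1.55 and 0.02), led by DUSP6, an ERK phosphatase (-7.59, adjusted p = 1.40e-06), with EPHA4 higher (1.48, adjusted p = 6.10e-05). In H1651 edgeR without the block called none, with a median of -1.13 beside -0.69 and 0.00. Of the 15, 10 had an unadjusted p under 0.05, DESeq2 called 6 lower and edgeR with no count filter 2, and 9 fell without control replicate 1 and 2 fell without control replicate 2.

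A list of 23 partners, which holds adaptors, RAS, RAF, MEK and ERK genes, Nf1 and the Cbl genes, had medians near 0 and shares called that lay close to those of all genes. It had 7 falls and 4 rises in 3311 (47.8%, against 39% of all genes in either direction, median 0.03), with Siah2, a ubiquitin ligase, lowest (-1.16, adjusted p = 0.00986) and Tesk1, a kinase that binds Sprouty4, highest (1.48, adjusted p = 0.00475). It had 4 falls and 4 rises in 1027B with trametinib (34.8% against 26.7%, median -0.04), with Siah2 lowest (-1.12, adjusted p = 0.0227) and Gab1, a docking protein, highest (1.03, adjusted p = 0.0121). These 8 calls went to 1 without trametinib replicate 1, to 4 without control replicate 2 and to 5 without trametinib replicate 2. With MRTX1133 in 1027B (4.35% against 6.27%) it had 1 fall, that of the adaptor Shc1 (-0.43, adjusted p = 0.0446), and none without control replicate 1 or either MRTX1133 library. In H358 it had 5 falls and 5 rises (43.5% against 46.8%, median 0.16), with MAP2K1, which encodes MEK1, lowest (-1.34, adjusted p = 7.37e-05) and GAB1 highest (0.99, adjusted p = 0.000911), 10 calls that went to 6 without control replicate 1.

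In the 48-hour 3154 experiment 3 nM MRTX1133 was tested with and without Hnf4a deletion, and both contrasts draw on 1 fit of 8 libraries. In ethanol-treated organoids no member of 6 was called, beside 0.349% of 15458 genes. At an unadjusted p under 0.05 there were 2 members and 1820 genes, and DESeq2 called 0 members and 330 genes. Spry4 was at 14.4 and 17.6 CPM in controls and at 11.8 and 12.4 CPM with MRTX1133 (log2 fold change -0.41, 95% interval -0.77 to -0.04, adjusted p = 0.378). Spred2 was at 65.2 and 56.9 CPM and then at 46.2 and 45.3 CPM (-0.42, adjusted p = 0.334). For both genes the treated libraries lay below the controls, while Spry1, Spry2 and Spred1 overlapped (log2 fold changes 0.00, -0.07 and -0.08). Spred3 lay higher in both treated libraries without passing, at 3.45 and 3.15 CPM in controls and at 4.52 and 3.74 CPM with MRTX1133 (0.32, 95% interval -0.18 to 0.82, adjusted p = 0.629).

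In organoids given 4OHT, 3 of 6 members fell with MRTX1133, against 2.54% of all genes. Spry4 was at 14.5 and 13.3 CPM with 4OHT and at 4.53 and 5.15 CPM with 4OHT and MRTX1133, a 2.87-fold fall (log2 fold change -1.52 ± 0.17 SE, adjusted p = 0.0131). Spred2 fell 1.84-fold, from 51.7 and 49.7 to 24.4 and 30.6 CPM (adjusted p = 0.0262). Spry2 fell 1.45-fold, from 120 and 114 to 80.9 CPM in both libraries (adjusted p = 0.0464), a call also lost with no count filter (0.0518) and with the replicate block (0.0624). Each of the 4 libraries decided these calls. Without any of them no member passed, with adjusted p from 0.0624 to 0.210 for Spry4, 0.0939 to 0.263 for Spred2 and 0.217 to 0.392 for Spry2, while the count over all genes went from 717 to between 0 and 22.

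Spred1 was at 250 and 255 CPM with 4OHT and at 185 and 205 CPM with both agents (log2 fold change -0.37, adjusted p = 0.161). It passed in the fit of only the 2 groups compared (adjusted p = 0.0168). Spred3 was at 7.32 and 7.10 CPM and then at 4.85 and 6.42 CPM (-0.35, adjusted p = 0.380). Spry1 overlapped, at 32 and 32.1 CPM against 32.2 and 27.9 CPM. Of the 15 ERK targets, 3 fell and none rose in the 4OHT organoids (median -0.39, beside -0.45 over the members and 0.00 over all genes), with Etv4 lowest (-1.0, adjusted p = 0.0277), and none was called without any of the 4 libraries. In the ethanol organoids edgeR called none (median -0.38), with 6 at an unadjusted p under 0.05, and DESeq2 called 2 lower. Without ethanol control replicate 2, edgeR also called 2 lower. For partners edgeR made no call with 4OHT (median -0.06, 2 at an unadjusted p under 0.05) or with ethanol (median -0.08, 1 at an unadjusted p under 0.05). DESeq2 called 1 partner lower with 4OHT and 0 with ethanol, and the fit of only the 2 groups compared called 4 with 4OHT, 1 higher and 3 lower.

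The difference between these responses was tested as an interaction, and no member and 0% of all genes passed. At an unadjusted p under 0.05 there were 2 members and 1150 genes, and DESeq2 called 0 members and 36 genes. Spry4 had an interaction of -1.11 on the log2 scale (95% interval -1.65 to -0.58, adjusted p = 0.541), Spred3 one of -0.68 (-1.37 to 0.01), Spred2 one of -0.47 (-0.95 to 0.02) and Spry2 one of -0.46 (-0.84 to -0.08). Spred1 and Spry1 had -0.29 and -0.10. The median was -0.46 over the members and -0.02 over all genes, and the values of the members share the same libraries.

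**Figure D3:**
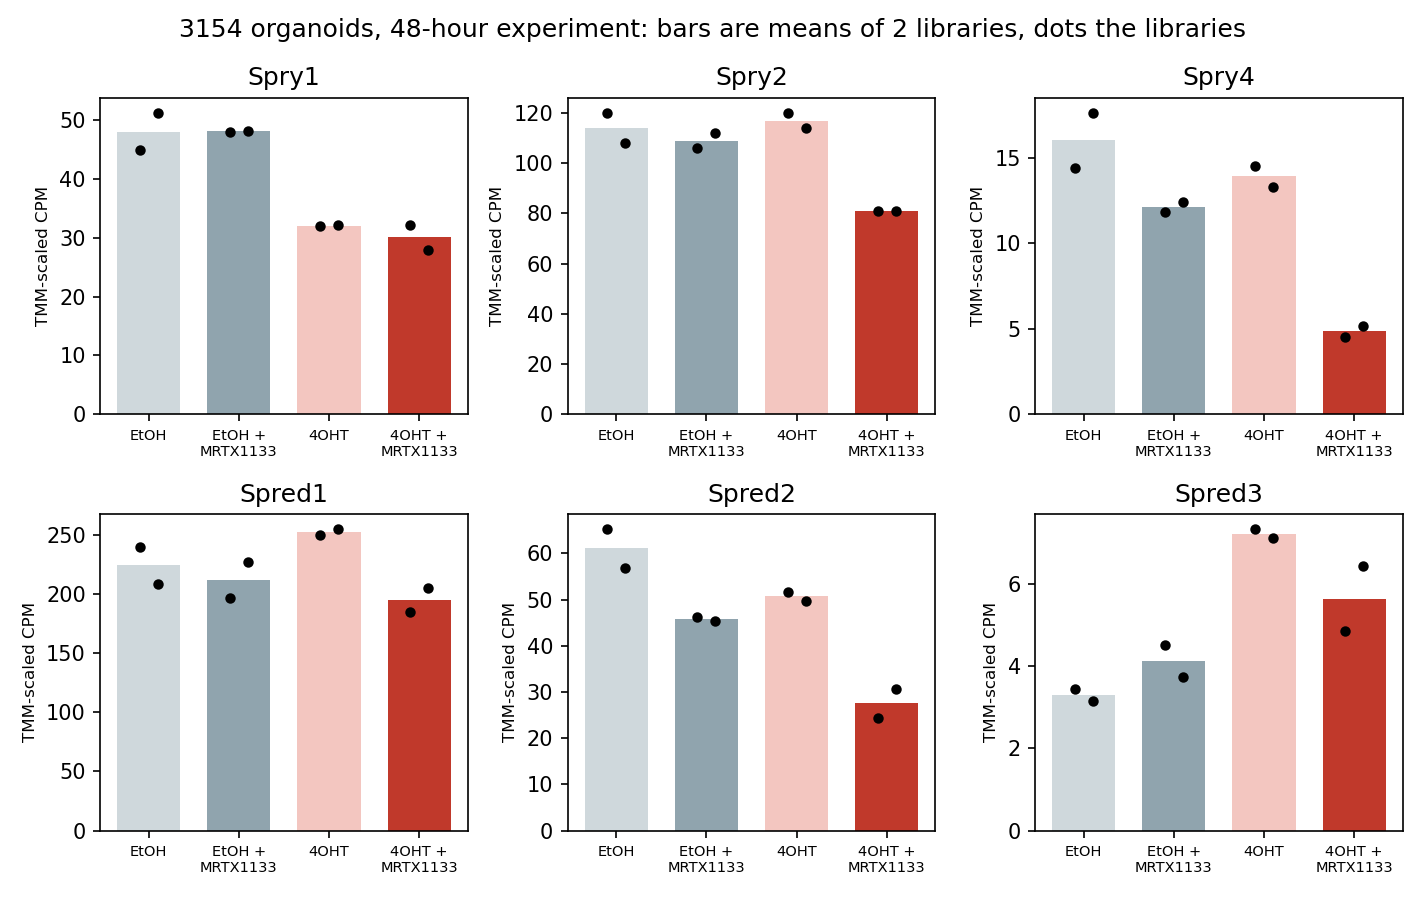
TMM-scaled CPM of 6 members in the 4 groups of the 48-hour 3154 experiment, with bars as means of 2 libraries and dots as libraries, on axes from 0. Spry4 is lowest in both libraries with 4OHT and MRTX1133, at 4.53 and 5.15 CPM, Spry1 is lower in all 4OHT libraries, and Spred3 is higher in them.

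Read the other way, the same libraries compare 4OHT with ethanol, and the contrasts share them with those above. Without MRTX1133, 2 of 6 members were called between 4OHT and ethanol, 1 lower and 1 higher. That share of 33.3% lay close to the 31.0% of all genes. Spry1 fell 1.5-fold, from 44.9 and 51.2 to 32 and 32.1 CPM (adjusted p = 0.0143), a call lost without 4OHT control replicate 1 (0.105) or 2 (0.107). Spred3 rose 2.18-fold, from 3.45 and 3.15 to 7.32 and 7.10 CPM (log2 fold change 1.13 ± 0.21 SE, adjusted p = 0.00652). Ggn, which overlaps 3.25% of Spred3's exon bases on the opposite strand, had 24 and 26 counts with ethanol and 35 and 16 with 4OHT, where Spred3 had 82 and 75 and then 193 and 159 counts. With edgeR and no replicate block, Spred3 was the 1 member called higher in any of the 13 comparisons, and DESeq2 also called Spry4 and Spred2 higher for MRTX1133 against trametinib in 1027B. Spred1 lay higher in both 4OHT libraries (log2 fold change 0.17, 95% interval -0.13 to 0.48) and Spred2 lower in both (-0.27, -0.61 to 0.08), and neither passed. Spry4 (log2 fold change -0.20, 95% interval -0.57 to 0.16) and Spry2 (0.03, -0.24 to 0.30) overlapped between groups.

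With MRTX1133 present, 4 of 6 members were lower with 4OHT, against 14.5% of all genes. Spry4 was 2.49-fold lower (log2 fold change -1.32 ± 0.17 SE, adjusted p = 0.00136), Spred2 1.66-fold lower (adjusted p = 0.00977), Spry1 1.6-fold lower, from 48.0 and 48.2 to 32.2 and 27.9 CPM (adjusted p = 0.00864), and Spry2 1.35-fold lower (adjusted p = 0.0302). The Spry4 call held without each library in turn, with adjusted p up to 0.0207. The Spred2 call was lost without the first library with both agents (0.0863) and the Spry1 call without the second (0.0854). The Spry2 call was lost without any of the 4 (0.0797 to 0.149). Spred3 was at 4.52 and 3.74 CPM against 4.85 and 6.42 CPM (log2 fold change 0.45, adjusted p = 0.148). Spred1 overlapped, at 197 and 227 CPM against 185 and 205 CPM (-0.12, 95% interval -0.42 to 0.18).

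The pathway lists had calls in both directions on this axis. With 4OHT alone, 4 of 15 ERK targets rose and 3 fell (median 0.45, beside -0.09 over the members and 0.01 over all genes), with Fosl1 highest (1.80, adjusted p = 0.0224) and the stress gene Ier3 lowest (-0.99, adjusted p = 0.00123). With MRTX1133 present, 2 rose and 1 fell (median 0.06, beside -0.55 and -0.01), with Epha4 highest (0.64, adjusted p = 0.0260) and Ier3 lowest (-0.70, adjusted p = 0.00504). Of the 23 partners, 4 rose and 4 fell with 4OHT alone (34.8%, against 31% of all genes) and 3 rose and 4 fell with both agents (30.4% against 27.7%), shares close to those of all genes. The ERK targets had 46.7% and 20% called in the same comparisons. Siah2 was lowest in both (-1.91, adjusted p = 0.000643, and -1.90, adjusted p = 0.000639), and Cav1, which encodes the membrane protein caveolin-1, was highest (1.30, adjusted p = 0.00815, and 0.90, adjusted p = 0.0343). With 4OHT alone, the 7 ERK target calls went to 3 without either 4OHT control library, and the 8 partner calls to 5 without the first and 2 without the second. With MRTX1133 present, the 3 ERK target calls went to 0 without the second library with both agents. The 7 partner calls went to 2 without either library with both agents and to 3 without either library with ethanol and MRTX1133.

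At 2 weeks after 4OHT none of the 7 members was called, beside 9.81% of 14492 genes. At an unadjusted p under 0.05 there were 2 of 7 members and 4154 of 14492 genes, and DESeq2 called 0 members and 2311 genes. Spry1 was at 36.7 and 66.7 CPM with ethanol and at 30.8 and 30.6 CPM with 4OHT, lower in both 4OHT libraries but with a wide spread among controls (log2 fold change -0.75, 95% interval -1.46 to -0.04, adjusted p = 0.155). The value rests on the ethanol libraries: the log2 fold change was -1.13 without ethanol replicate 1 (adjusted p = 0.00558) and -0.25 without ethanol replicate 2 (adjusted p = 0.519). Spry3 was at 0.989 and 0.943 CPM with ethanol and at 0.460 and 0.375 CPM with 4OHT (10 to 30 counts), with a log2 fold change of -1.20 (adjusted p = 0.123). Spred3 overlapped, at 9.92 and 14.4 CPM against 12.2 and 23.5 CPM (0.55, adjusted p = 0.360).

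Spry4 at 2 weeks was at 6.53 and 12.1 CPM with ethanol and at 7.58 and 12.3 CPM with 4OHT, so that replicates of a group lay further apart than the groups. Spry2 was at 82.9 and 113 CPM against 95.7 and 115 CPM. Spred1 (146 and 145 CPM against 159 and 153 CPM) and Spred2 (43.5 and 45.2 CPM against 44.8 and 45.3 CPM) had log2 fold changes of 0.10 and 0.02, with 95% intervals of -0.18 to 0.38 and -0.29 to 0.34. Of the 15 ERK targets 2 rose and none fell (median 0.16), with Fosl1 highest (1.65, adjusted p = 0.0495). edgeR called no partner, with 4 at an unadjusted p under 0.05, and DESeq2 called 2 lower. Without 1 library the ERK target calls went to 0 (4OHT replicate 2), 1 (4OHT replicate 1 or ethanol replicate 2) or 4 (ethanol replicate 1), and 1 partner fell without ethanol replicate 1. The 3 of 5 leukocyte markers with a row summed to 18.4 and 44.6 CPM with ethanol and to 9.91 and 13.3 CPM with 4OHT, with Ptprc at 0.0659 to 0.375 CPM. Csf1r went from 13.2 and 38.1 to 3.45 and 5.14 CPM, while Cd68 lay higher with 4OHT, at 5.11 and 6.24 and then at 6.30 and 7.76 CPM. The 3 of 4 endothelial markers with a row summed to 5.93 and 5.08 CPM with ethanol and to 2.17 and 2.55 CPM with 4OHT, mostly Pecam1. Their part in these values was not tested.

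Doxycycline induction of HNF4α in H1651 gave no call for any of the 7 members, beside 1.42% of 17351 genes. At an unadjusted p under 0.05 there were 1 of 7 members and 2203 of 17351 genes, and DESeq2 called 0 members and 451 genes. SPRY4 was at 7.92 and 7.90 CPM without doxycycline and at 11.6 and 9.93 CPM with it, higher in both (log2 fold change 0.45, 95% interval 0.10 to 0.79, adjusted p = 0.252). SPRY1 was at 8 and 8.25 CPM and then at 8.49 and 8.21 CPM (0.04, 95% interval -0.29 to 0.37). SPRY2, SPRED1 and SPRED2 also overlapped, with log2 fold changes of -0.07, -0.18 and 0.00. SPRY3 was at 1.11 and 1.15 CPM and then at 0.550 and 0.971 CPM (-0.58), and SPRED3 at 3.96 and 4.47 CPM and then at 4.64 and 4.77 CPM (0.16). Of the 15 ERK targets 2 rose and none fell (13.3%, against 1.42% of all genes in either direction, median -0.13), with DUSP6 highest (0.54, adjusted p = 0.0449). edgeR called no partner, with 4 at an unadjusted p under 0.05, and DESeq2 called 0. Leaving out the second library without doxycycline took the ERK target calls to 0, and leaving out the first doxycycline library took them to 1, higher. Without the second doxycycline library or the first without doxycycline the 1 call was of a gene that was lower. Fibroblast markers, 8 of 8 with a row and none at 0, summed to 664 and 759 CPM without doxycycline and to 413 and 456 CPM with it. Epithelial markers summed to 4420 CPM in both libraries without doxycycline and to 5720 and 6200 CPM with it, mostly KRT8 and KRT18. The part of either list in these values was not tested.

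**Figure D4:**
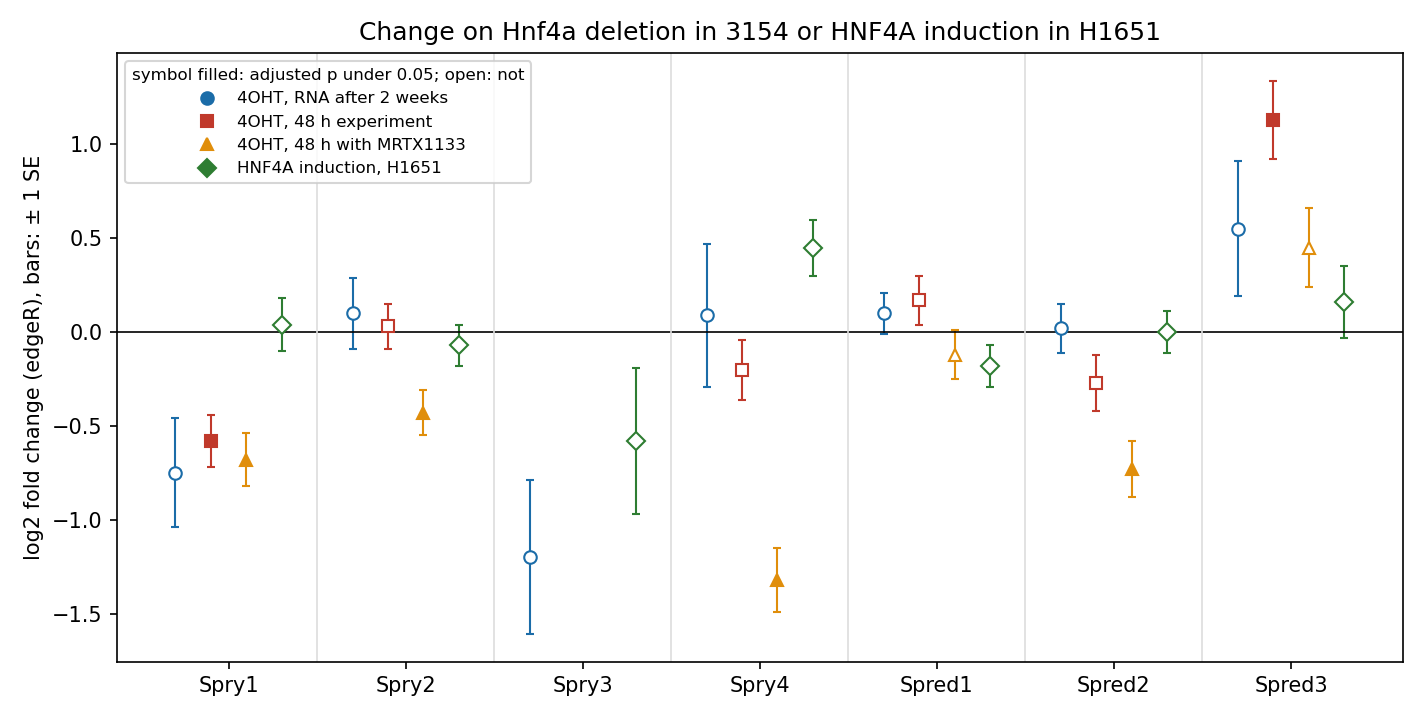
Fitted log2 fold change of each member for 4OHT against ethanol in 3 comparisons in 3154 organoids and for doxycycline against none in H1651, with bars of 1 SE and filled symbols where the adjusted p was under 0.05. Spry1 lies between -0.58 and -0.75 in the 3154 comparisons, and Spry4 falls furthest, to -1.32, in the one with MRTX1133.

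Across all 34 libraries and 9575 genes measured in both species, the log2 CPM of SPRY4, centred on the mean of its own table, was most like that of ETV4 (Pearson r = 0.95), DUSP4 (0.94) and UBALD2 (0.93). SPRY2 was closest to DUSP4 (0.91), PITPNC1 (0.90) and PTHLH (0.89), and SPRY1 to MAFF (0.92), UBALD2 (0.87) and HPCAL1 (0.86). SPRED1 was closest to PHLDA1 (0.92), ETV4 (0.91) and DUSP6 (0.90), SPRED2 to GPSM2 (0.93), LRP8 (0.93) and UBALD2 (0.92), and SPRED3 to PTPN12 (0.88), MUC5B (0.86) and EREG (0.83). Between members r ran from 0.47 (SPRY1 and SPRED3) to 0.93 (SPRY4 and SPRED2). These values are descriptions, since the libraries of a table share culture and treatment.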

How the data were processed

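The values are raw counts of reads per gene in 7 tables deposited by the authors, made with cutadapt 3.5, STAR 2.7.6a and featureCounts 1.6.3 on mm10, mm39 or hg38, per the submitters' processing notes. Which build belongs to which table, the annotation and the strand setting are not given in the sources used here. If counting ignored strand, reads over bases that Spry1 and Spred3 share with opposite-strand genes cannot be assigned by strand. How such reads were counted is not given in the sources used here. The 3311 columns name treatment and replicate only, and were taken as 3311 from the table's own name.

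Each table was fitted alone in R 4.3.3 with edgeR 4.0.16 (filterByExpr defaults, TMM, quasi-likelihood F-test), with Benjamini-Hochberg adjustment over all genes tested and calls at 0.05, after checks on simulated data. Likeness used log2 CPM with a prior count of 2, centred on each table's mean. With 2 libraries a group the smallest exact permutation p is 0.333, so none is given. Replicates of a group differed beyond counting noise in every group (chi-square per degree of freedom 5.58 to 79.9). The biological coefficient of variation was 0.0949 to 0.193. Limits on a count of 0 cover counting error only.

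Replicate differences correlated between the 1027B groups at 0.372, 0.243 and 0.414, all over 0.1. Pairing was accepted only where 3 or more such correlations were all over 0.1, which a table of 2 groups, with 1 correlation, cannot meet. The replicate block is therefore given for 1027B beside results it changes. For trametinib in H1651 its counts are also given, without pairing being accepted. Alternatives were DESeq2 1.42.0, RLE size factors, no count filter, at least 10 counts in every library, the replicate block, a fit of only the 2 groups compared, and each library left out. The members are named everywhere, and of the other lists only the called gene with the largest fall and rise. Members and lists were chosen with earlier results of these data known. A further allele that the mouse cultures share is not reported here.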

Additional observations from a re-analysis of the deposited data

How the results depend on the processing

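Of the 83 log2 fold changes of members, 72 had no counted change of sign under any alternative, and all 26 that were called kept their sign. A main value of 0.00 was taken to have no sign and was not counted as changing. Of those 26 calls, 25 held under every alternative other than leaving out a library, the exception being Spry2 with MRTX1133 in the 4OHT organoids (adjusted p = 0.0518 with no count filter and 0.0624 with the replicate block). The fit of 2 groups added Spred1 there. In 17 the call also held without each library in turn, where a lone library is assumed to vary like the others. With the replicate block, members called went from 0 to 1 in the 2-week deletion (Spry1, log2 fold change -0.69), from 0 to 1 with doxycycline (SPRY4, 0.44, adjusted p = 0.00459), from 0 to 6 with trametinib in H1651 (all lower, adjusted p from 2.15e-16 to 0.0431), from 1 to 4 with MRTX1133 in 1027B and from 0 to 3 for MRTX1133 against trametinib. With DESeq2 they went to 2 in both of the last comparisons and to 3 with trametinib in H1651. Pairing was accepted only in 1027B, since a table of 2 groups gives 1 correlation. In the other tables correlations of replicate differences were 0.427 (2 weeks), 0.126 (3311), 0.318 (H358 and the doxycycline table), 0.623 (H1651 with trametinib) and -0.251 to 0.549 (48-hour 3154).

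Without 1 library, members called ranged from 0 to 1 in the 2-week deletion, in MRTX1133 in 1027B and in trametinib in H1651, from 0 to 0 for MRTX1133 with 4OHT, from 1 to 2 for 4OHT in controls and from 2 to 3 for 4OHT with MRTX1133. Signs changed without a library in 11 uncalled results whose main value was not 0.00. Of those at 0.00, Spry1 with MRTX1133 and ethanol ranged from -0.09 to 0.10 and SPRED2 with doxycycline from -0.15 to 0.15. With MRTX1133 in 1027B, Spred1 ranged from -0.18 to 0.10 and Spred3 from -0.33 to 0.05, and against trametinib Spred3 ranged from -0.07 to 0.29. With MRTX1133 and ethanol, Spred1 ranged from -0.18 to 0.02 and Spry2 from -0.14 to 0.01, and with 4OHT Spry1 ranged from -0.20 to 0.01. For 4OHT in controls Spry2 ranged from -0.04 to 0.11. In the 2-week deletion Spred2 ranged from -0.01 to 0.06, Spry2 from -0.12 to 0.35 and Spry4 from -0.30 to 0.61. Spry3 in 3311 ranged from -0.49 to 0.39. The cause was not tested.

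Counts over all genes moved by over 1.5 times in several fits. The block gave 4563 against 1421 (2 weeks), 3048 against 247 (doxycycline), 2050 against 0 (MRTX1133 against trametinib), 3515 against 913 (MRTX1133 in 1027B), 6540 against 3880 (trametinib in 1027B) and 1881 against 0 (H1651). DESeq2 gave 2311, 451, 712, 1636 and 47 for these comparisons, trametinib in 1027B excepted, 36 against 0 for the interaction, and 1342 against 717 and 330 against 54 for MRTX1133 with 4OHT and with ethanol. The fit of 2 groups gave 3101 against 4795 (4OHT in controls), 3888 against 717, 0 against 54, and 1 against 0 for MRTX1133 against trametinib, and no count filter gave 2 against 0 in H1651. Without 1 library they ranged from 324 to 2553 (2 weeks), 182 to 378 (doxycycline), 0 to 2 (MRTX1133 against trametinib), 126 to 353 (MRTX1133 in 1027B), 1352 to 2835 (trametinib in 1027B), 3833 to 6218 (3311), 0 to 64 (H1651), 0 to 22 and 0 to 288 (MRTX1133 with 4OHT and with ethanol), 1724 to 5946 (4OHT in controls) and 1748 to 2834 against 4279 (4OHT with MRTX1133), so the shares of all genes beside the members depend on single libraries. ERK targets called went from 2 to 8 (2 weeks), 2 to 9 (doxycycline, 5 higher and 4 lower), 0 to 9 (MRTX1133 against trametinib) and 0 to 13 (H1651) with the block, to 7 and 6 in the last pair and from 0 to 2 for MRTX1133 with ethanol with DESeq2, and from 3 to 10 for MRTX1133 with 4OHT, 7 to 3 for 4OHT in controls and 3 to 5 for 4OHT with MRTX1133 in the fit of 2 groups. With at least 10 counts in every library, ERK targets called went from 2 to 1 at 2 weeks and with doxycycline, and with no count filter from 0 to 2 in H1651. Partners called went, with the block, from 1 to 10 with MRTX1133 in 1027B, 10 to 17 in H358, 0 to 6 with doxycycline, 0 to 4 at 2 weeks, 0 to 4 in H1651 with trametinib and 0 to 1 for MRTX1133 against trametinib. DESeq2 took them from 1 to 6 with MRTX1133 in 1027B, 0 to 2 at 2 weeks and 0 to 1 for MRTX1133 with 4OHT. The fit of 2 groups took them from 0 to 4 for MRTX1133 with 4OHT, 8 to 5 for 4OHT in controls and 1 to 0 with MRTX1133 in 1027B. Depth limits Spry3 (10 to 30 counts in the 2-week experiment).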
